A study of Homo sapiens with 6 samples.

Results

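The transcripts of 10 chemokines that epithelial cells can secrete were followed in AsPC-1, an established human pancreatic cancer cell line. The 10 genes, CXCL1, CXCL2, CXCL3, CXCL5, CXCL6, CXCL8, CXCL16, CX3CL1, CCL20 and CCL28, were taken by symbol from a table of 58735 genes, and each symbol matched 1 gene. The Vector group (3 libraries) was infected with an empty lentivirus and is labelled WT, and the OE-MMP28 group (3 libraries) was infected with a lentivirus that carries the cDNA of MMP28, a secreted matrix metalloproteinase. The study's methods describe vectors with GFP and a puromycin resistance gene and cells selected with puromycin, so each group is a selected population of 1 cell line, and nothing in the labels says that the 3 libraries of a group came from separate cultures. The p-values therefore measure the spread between these libraries, which may be technical. Wherever 3 values of a group are listed, they belong to replicates 1, 2 and 3 in that order.

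Chemokines are small secreted proteins that guide leukocytes along concentration gradients through G protein-coupled receptors. CXCL1, CXCL2, CXCL3, CXCL5, CXCL6 and CXCL8 carry a glutamate-leucine-arginine motif ahead of the CXC cysteines and attract neutrophils through CXCR2, and CXCL8 (IL-8) and CXCL6 also through CXCR1. CXCL16 and CX3CL1 are made as membrane proteins with a mucin stalk and are released by the proteases ADAM10 and ADAM17. CCL20 attracts CCR6-positive dendritic cells and lymphocytes, and CCL28 is a mucosal chemokine that acts through CCR10 and CCR3. In epithelial cells many of these genes are induced by cytokines such as IL-1 and TNF through the transcription factors NF-kappa-B and AP-1. The study asked what MMP28 changes in the factors that tumour cells release toward macrophages. It also measured IL-8 and MCP-1 (CCL2) by assays on RNA and protein, which are not analysed here.

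The starts of the CXC genes on chromosome 4 and of CCL20 are shown because they hold letters of the kappa-B element, the DNA motif bound by NF-kappa-B (in CXCL8 a shorter form outside the consensus), and because CXCL5 and CXCL6 share almost the same start while CXCL6 had no read. GENCODE's longest models begin further upstream for some of them. Each line gives 120 bases upstream of the RefSeq start on build GRCh38.p14, read on the strand of the gene, with the match to the kappa-B consensus, or in CXCL8 to GGAATTTCC, in capitals.
CXCL1 (chr4:73869273-73869392, plus strand): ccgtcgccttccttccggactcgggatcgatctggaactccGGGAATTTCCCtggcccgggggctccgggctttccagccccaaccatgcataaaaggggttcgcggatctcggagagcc
CXCL2 (chr4:74099196-74099315, minus strand): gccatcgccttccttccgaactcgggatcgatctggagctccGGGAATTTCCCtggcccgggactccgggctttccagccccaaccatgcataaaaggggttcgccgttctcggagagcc
CXCL3 (chr4:74038690-74038809, minus strand): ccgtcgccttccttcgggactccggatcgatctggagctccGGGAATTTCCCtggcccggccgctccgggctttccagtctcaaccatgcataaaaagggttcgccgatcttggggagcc
CXCL5 (chr4:73998678-73998797, minus strand): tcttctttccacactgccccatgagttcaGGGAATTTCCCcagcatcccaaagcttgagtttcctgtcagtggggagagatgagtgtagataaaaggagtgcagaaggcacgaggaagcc
CXCL6 (chr4:73836558-73836677, plus strand): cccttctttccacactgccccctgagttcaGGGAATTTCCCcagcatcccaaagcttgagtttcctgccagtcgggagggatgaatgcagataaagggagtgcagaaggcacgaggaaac
CXCL8 (chr4:73740449-73740568, plus strand): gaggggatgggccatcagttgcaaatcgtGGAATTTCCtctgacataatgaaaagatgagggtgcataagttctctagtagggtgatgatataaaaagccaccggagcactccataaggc
CCL20 (chr2:227813722-227813841, plus strand): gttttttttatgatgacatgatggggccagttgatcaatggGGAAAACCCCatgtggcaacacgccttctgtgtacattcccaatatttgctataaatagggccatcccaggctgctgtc

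Promoters in RefSeq were matched for 8 of the 10 genes, with a pair of them for CCL28, and CXCL16 and CX3CL1 were not matched. Over the 250 bases upstream, CXCL1 and CXCL3 were 81.4% identical, CXCL2 and CXCL3 73.3%, and CXCL1 and CXCL2 68.0%. The starts of CXCL5 and CXCL6 were 85.3% identical, while the other pairs among these 7 genes had identities between 40.5% and 51.5%. The longest run of letters common to 5 of these genes was GGGAATTTCCC (11 bases), held by CXCL1, CXCL2, CXCL3, CXCL5 and CXCL6 and, on either strand, by 0.0769% of the upstream 250 bases of all 35116 promoters. It lay from -79 to -69 relative to the start in CXCL1 and CXCL3, from -78 to -68 in CXCL2, from -91 to -81 in CXCL5 and from -90 to -80 in CXCL6. The shorter GGAATTTCC, which lies inside that run, was held by 0.413% of all promoters and was found in CXCL8 too (-91 to -83). The degenerate kappa-B consensus, held by 5.21% of promoters, matched the 5 genes with the long run and CCL20, there on the minus strand from -79 to -70, but not CXCL8. The AP-1 element TGANTCA, held by 6.57% of promoters, was found among these genes in CXCL8 alone (-137 to -131). These motifs were chosen after the sequences had been seen, and a match is a description of letters, not a measured binding site.

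Total counts ranged from 13633249 to 16691458 per library, so that a count of 0 allowed a level of up to 3 counts, or 0.180 to 0.220 CPM (counts scaled to the library total), for counting error only. MMP28 checked the labels. Its level, in FPKM (fragments per kilobase, which corrects for gene length and library total), was 5.17, 9.11 and 8.43 in Vector and 13.1, 13.9 and 15.1 in OE-MMP28, and the groups did not overlap (log2 fold change 0.90, SE 0.19, edgeR quasi-likelihood test with Benjamini-Hochberg adjusted p = 0.00226). Mitochondrial genes took 13.7% ± 1.62 of counts in Vector and 10.8% ± 1.71 in OE-MMP28 (SD, n = 3). All 8 listed ductal epithelial markers were detected, with a summed level of 2635 to 3596 FPKM in Vector and 3615 to 4419 in OE-MMP28. The sum does not stand for each of them: at an edgeR adjusted p under 0.05, 2 were higher in OE-MMP28, 1 was lower and 5 did not pass. The 8 myeloid markers summed to 164.0 to 186 FPKM in Vector and 106 to 146 in OE-MMP28, nearly all of it from LYZ, while 6 of the 8 had at most 10 counts and PTPRC, which marks leukocytes, at most 1. The 6 fibroblast markers summed to 33.9 to 40.9 and 39.3 to 57.0 FPKM, mostly LUM, and the 4 endothelial markers to 0.0441 to 0.170 and 0.179 to 0.293 FPKM. The part of these shifts in the chemokine results was not tested.

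One chemokine transcript dominated in both groups. CXCL16 made up 64.6% ± 8.99 (SD, n = 3) of the summed FPKM of the 10 genes in Vector and 66.4% ± 5.47 in OE-MMP28. By mean level over the 6 libraries CCL20 and CXCL2 followed, then CXCL1, CXCL3, CXCL8, CXCL5 and CCL28, while CX3CL1 and CXCL6 were at or near 0. Among all tested genes, 10.5% had a higher mean FPKM than CXCL16 and 49.3% a higher one than CCL20. In Vector, the ranges of neighbours in the order failed to overlap for 2 pairs, CXCL16 over CXCL2 and CCL28 over CX3CL1. In OE-MMP28 there were 3 such pairs, CXCL16 over CCL20, CXCL2 over CXCL5 and CXCL3 over CX3CL1. The order of CXCL5, CXCL8 and CCL28 was not resolved beyond the spread of the libraries in either group.

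**Figure D1:**
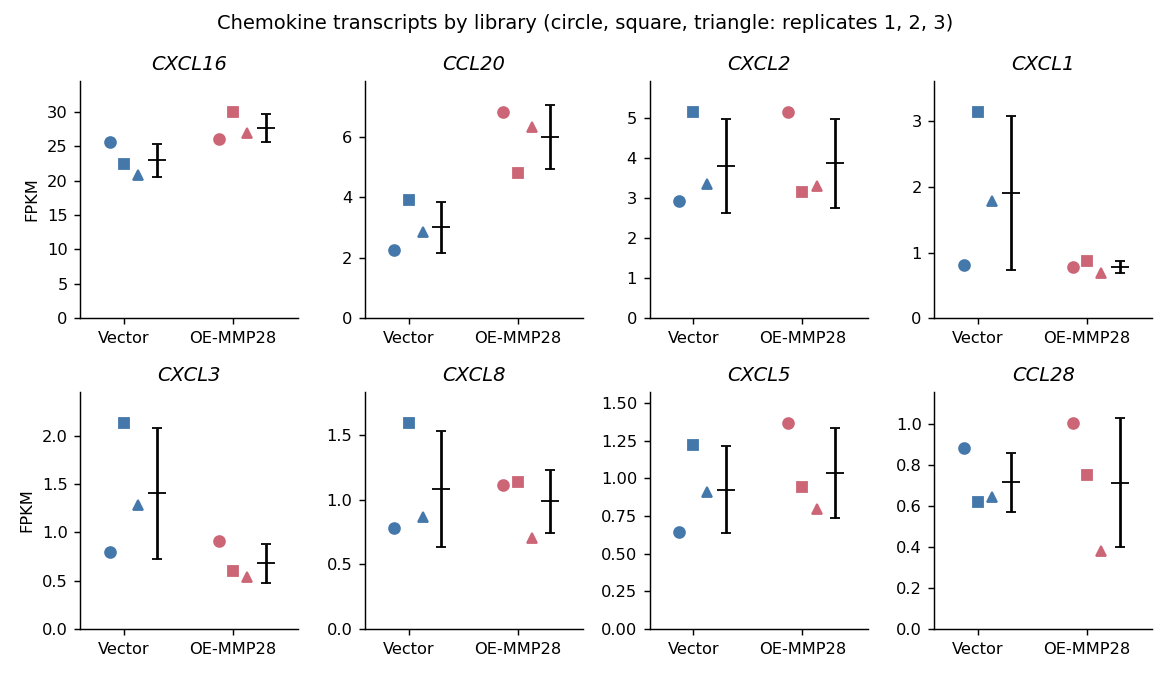
FPKM (vertical axis, from 0, with a separate scale per gene) of the 8 chemokines with more than a few counts in each Vector (blue) and OE-MMP28 (red) library, with the mean and SD of 3 libraries as a bar beside the points. The groups separate for CCL20 and CXCL16, and Vector replicate 2 (square) is the highest Vector library in 6 of the 8 genes.

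Of the 10 chemokines, 8 passed the filter on low counts and were tested. At a Benjamini-Hochberg adjusted p under 0.05 in edgeR, CCL20 was higher in OE-MMP28 and CXCL1 lower, and the other 6 did not pass. That is 2 of 8, where 23.4% of all 15319 tested genes were called, 11.7% of them higher and 11.6% lower, so the share among the chemokines was near the background. The median log2 fold change of the 8 was 0.015, and that of all tested genes was 0.014. Vector and OE-MMP28 ranges of FPKM were apart for 2 of the 8, CCL20 and CXCL16, both higher, against 38.1% of all tested genes (19.0% higher and 19.1% lower).

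CCL20 (ENSG00000115009, chr2:227805739-227817564, plus strand) had 2.26, 3.90 and 2.85 FPKM in Vector and 6.82, 4.79 and 6.34 FPKM in OE-MMP28. Every OE-MMP28 library was above every Vector library, and the reads behind these levels numbered 55 to 84 in Vector and 121 to 172 in OE-MMP28. The mean rose from 3.00 ± 0.831 to 5.98 ± 1.06 FPKM (SD, n = 3). CCL20, the ligand of CCR6, was thus 2.01-fold higher on the scaled counts (log2 fold change 1.01, SE 0.25, 95% interval 0.49 to 1.52, edgeR adjusted p = 0.00572). In such bulk RNA, more cells with the transcript and more RNA per cell cannot be told apart. It kept an adjusted p under 0.05 in 17 of 18 other fits, including each fit without 1 library, with a range from 0.00102 to 0.0924, and the highest value came from limma on log2(FPKM + 1) without a filter. Other tested genes in a 10 Mb window centred on CCL20 had a median log2 fold change of -0.24. Relative to that median the change of CCL20 was 1.25 with an edgeR adjusted p of 0.00175. Its share of the summed chemokine FPKM was 8.32% in Vector and 14.4% in OE-MMP28. By mean level it came after CXCL2 in Vector and ahead of it in OE-MMP28.

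**Figure D2:**
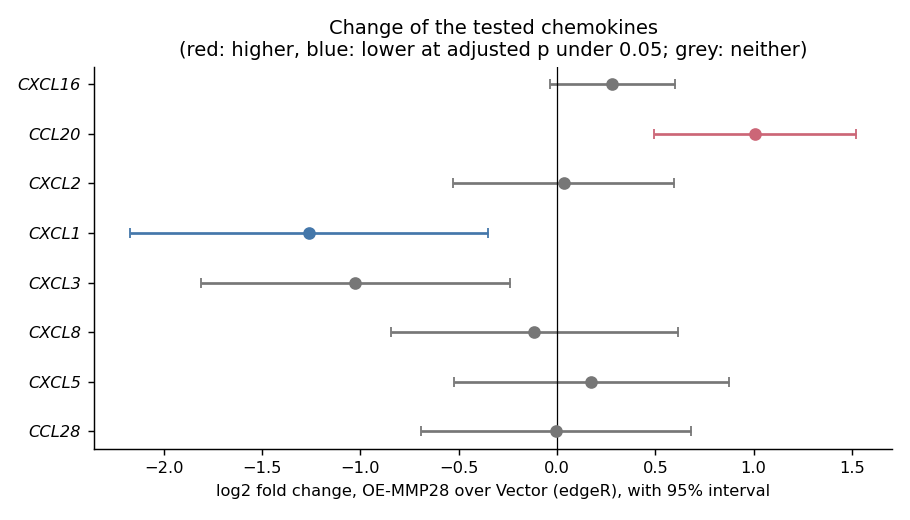
log2 fold change (horizontal axis, OE-MMP28 over Vector, edgeR) of each tested chemokine with its 95% interval. The intervals of CCL20, CXCL1 and CXCL3 lie to 1 side of 0, and adjusted over all tested genes CCL20 and CXCL1 pass 0.05.

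CXCL16 (ENSG00000161921, chr17:4733526-4739922, minus strand) is the membrane-anchored ligand of CXCR6. Its level was 25.6, 22.5 and 20.9 FPKM in Vector and 26.1, 30.0 and 26.9 FPKM in OE-MMP28. The groups did not overlap, although the highest Vector library lay just under the lowest OE-MMP28 library, and the difference did not pass the test (log2 fold change 0.28, SE 0.15, 95% interval -0.03 to 0.60, edgeR adjusted p = 0.190). The adjusted p stayed between 0.134 and 0.519 in 18 other fits. With 848 to 1329 counts per library it was the most deeply counted of the 10, and 3.04% of its exon length lies under MED11 on the opposite strand, so some of its reads could belong to MED11 if counting ignored the strand. The genes whose log2 CPM followed it most closely over the 6 libraries were OGDH (Pearson r = 0.995), SART3 (0.994) and IFFO2 (0.992), out of 336 of 15318 genes with r above 0.9. These values describe 6 libraries that also share their group and their depth.

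The 6 neutrophil-attracting CXC genes lie within 359 kb on chromosome 4, from CXCL8 at one end to CXCL2 at the other, in a stretch with 9 protein-coding genes. The remaining 3 are PF4V1, PF4 and PPBP, platelet chemokines, and these had at most 6 counts in any library. Of the 6, CXCL1 was lower in OE-MMP28, CXCL2, CXCL3, CXCL5 and CXCL8 did not pass the test, and CXCL6 had no count.

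**Figure D3:**
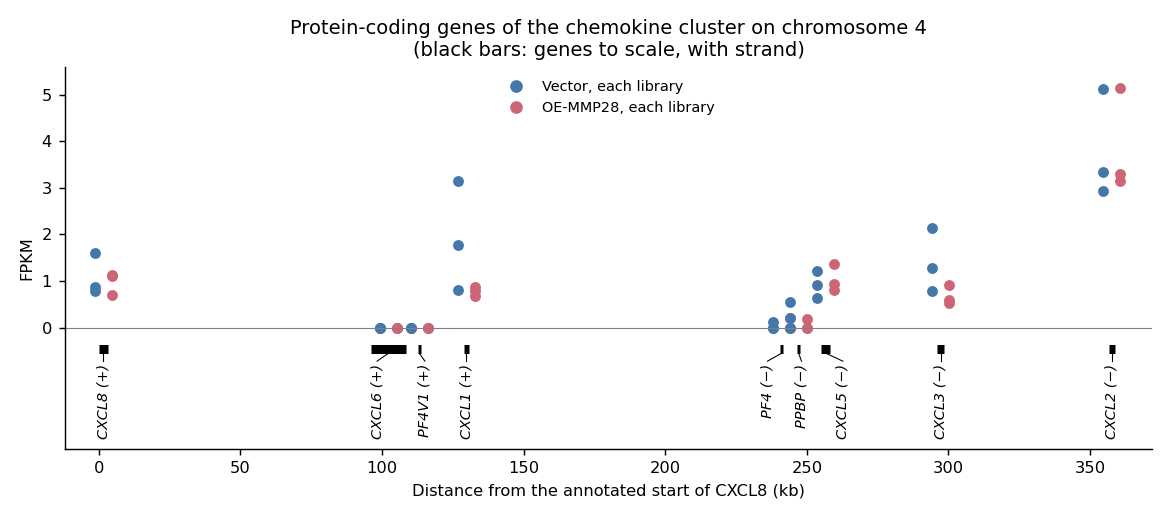
FPKM in each library (vertical axis) of the 9 protein-coding genes of the cluster, placed by their distance in kb from the annotated start of CXCL8, with gene bodies as black bars and the strand beside each name. CXCL6 and PF4V1 sit at 0 between CXCL8 and CXCL1, and Vector libraries of CXCL1 range from 0.807 to 3.14 FPKM.

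CXCL1 (ENSG00000163739, chr4:73869393-73871242, plus strand) had 0.807, 3.14 and 1.78 FPKM in Vector and 0.781, 0.876 and 0.688 FPKM in OE-MMP28, from 16, 55 and 34 and from 16, 18 and 15 counts. The OE-MMP28 libraries lay close together, Vector replicate 1 lay among them and only Vector replicates 2 and 3 stood above. CXCL1 passed the test (log2 fold change -1.26, SE 0.44, 95% interval -2.17 to -0.35, edgeR adjusted p = 0.0414), but under 0.05 in only 9 of 18 other fits. Without Vector replicate 1 its adjusted p was 0.00335 at a log2 fold change of -1.63, and without Vector replicate 2 it was 0.307 at -0.71. Without Vector replicate 3 or OE-MMP28 replicate 1, 2 or 3 the adjusted p was 0.0672, 0.0997, 0.0879 and 0.131, with log2 fold changes between -1.37 and -1.18. limma voom gave 0.114, and the highest adjusted p was 0.350, from limma on log2(FPKM + 1) without a filter.

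CXCL3 (ENSG00000163734, chr4:74036589-74038807, minus strand), a close paralog of CXCL1, had 0.796, 2.13 and 1.28 FPKM in Vector and 0.912, 0.597 and 0.536 FPKM in OE-MMP28. As for CXCL1, Vector replicates 2 and 3 stood above all OE-MMP28 libraries and Vector replicate 1 did not. Its log2 fold change was -1.03 (SE 0.38, 95% interval -1.81 to -0.24), with an edgeR adjusted p of 0.0541. The adjusted p fell under 0.05 in 6 of 18 other fits, with a range from 0.00909 without Vector replicate 1 to 0.347, and was 0.0499 without OE-MMP28 replicate 1.

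CXCL2 (ENSG00000081041, chr4:74097035-74099293, minus strand), the most abundant transcript of the cluster, had 2.92, 5.13 and 3.35 FPKM in Vector and 5.14, 3.15 and 3.29 FPKM in OE-MMP28. The groups covered almost the same range, with 1 high library in each, and the means were 3.80 ± 1.17 and 3.86 ± 1.11 FPKM (SD, n = 3). The 95% interval of its log2 fold change of 0.035 ran from -0.53 to 0.60 (edgeR adjusted p = 0.945). Its sign turned in 5 of 18 other fits, none of which passed the test.

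Relative to CXCL2 in the same library, CXCL1 stood at 0.276, 0.612 and 0.532 in Vector and at 0.152, 0.278 and 0.209 in OE-MMP28 (ratio of FPKM). The ratio of CXCL3 to CXCL2 was 0.272, 0.416 and 0.384 in Vector and 0.177, 0.189 and 0.163 in OE-MMP28, so that here the groups did not overlap. That of CCL20 to CXCL2 was 0.772, 0.760 and 0.852 in Vector and 1.33, 1.52 and 1.93 in OE-MMP28, again without overlap. The ratios of CXCL5 (0.221 to 0.272 in Vector, 0.242 to 0.299 in OE-MMP28) and CXCL8 (0.259 to 0.311, 0.215 to 0.361) to CXCL2 overlapped, as did those of CXCL1 to CXCL2 and of CXCL1 to CXCL3 (1.01 to 1.47, 0.856 to 1.47). These 6 ratios were formed after the levels had been seen and carry no test. CXCL1, CXCL2 and CXCL3 also share sequence, which makes their separate values less certain. Of the stretches of 50 bases in the annotated transcripts of CXCL2, 8.99% also occur in CXCL3 and 3.88% in CXCL1, and for stretches of 100 bases 5.00% of those of CXCL2 occur in CXCL3 and none of CXCL1 in either. Summed over the 3 genes, the counts were 110, 223 and 150 in Vector and 170, 114 and 118 in OE-MMP28, or 11.3 ± 4.60 and 8.31 ± 1.93 CPM (SD, n = 3), and the groups overlapped.

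CXCL8 (ENSG00000169429, chr4:73740506-73743716, plus strand), which encodes IL-8, had 0.777, 1.59 and 0.865 FPKM in Vector and 1.11, 1.14 and 0.706 FPKM in OE-MMP28. The groups overlapped, and the means were 1.08 ± 0.449 and 0.985 ± 0.242 FPKM (SD, n = 3) from 27 to 49 counts per library. Its log2 fold change was -0.12 (SE 0.35, edgeR adjusted p = 0.850), and the 95% interval of -0.85 to 0.62 leaves room for a moderate change either way at this depth. Without Vector replicate 2 the log2 fold change was 0.27 and without OE-MMP28 replicate 3 it was 0.076, and in no other fit did the adjusted p fall below 0.591.

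CXCL5 (ENSG00000163735, chr4:73995642-73998779, minus strand) had 0.644, 1.22 and 0.909 FPKM in Vector and 1.37, 0.944 and 0.796 FPKM in OE-MMP28. The ranges overlapped and the test was not passed (log2 fold change 0.18, SE 0.34, 95% interval -0.52 to 0.87, edgeR adjusted p = 0.749). CXCL6 (ENSG00000124875, chr4:73836497-73849064, plus strand), its near copy and a second ligand of CXCR1, was without a read in each of the 6 libraries, and that allows up to 0.0823 to 0.101 FPKM. All CXCL5 libraries were above that limit.

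The Vector libraries kept the same order over most of these genes. There, replicate 2 was the highest and replicate 1 the lowest for CXCL1, CXCL2, CXCL3, CXCL5, CXCL8 and CCL20, 6 of the 8 tested, whereas for CXCL16 and CCL28 replicate 1 was the highest. The highest Vector library was 3.89 times the lowest for CXCL1, 2.68 times for CXCL3, 2.05 times for CXCL8 and 1.23 times for CXCL16. Of 5 other genes looked at, MMP28, the AP-1 subunit FOS and the cytokine IL1B had the same order of Vector libraries, while FOSL1 (replicate 1 highest, replicate 3 lowest) and ATF3 (replicate 2 highest, replicate 3 lowest) did not. How many of all tested genes share that order is not given here, so it cannot be called particular to the chemokines. In OE-MMP28 no full order was shared by most of the 8. There, replicate 1 was the highest for 5 and replicate 2 for 3, and replicate 3 was the lowest for 5. Whether the spread within Vector had a part in the results for CXCL1 and CXCL3 was not tested beyond the fits without 1 library.

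**Figure D4:**
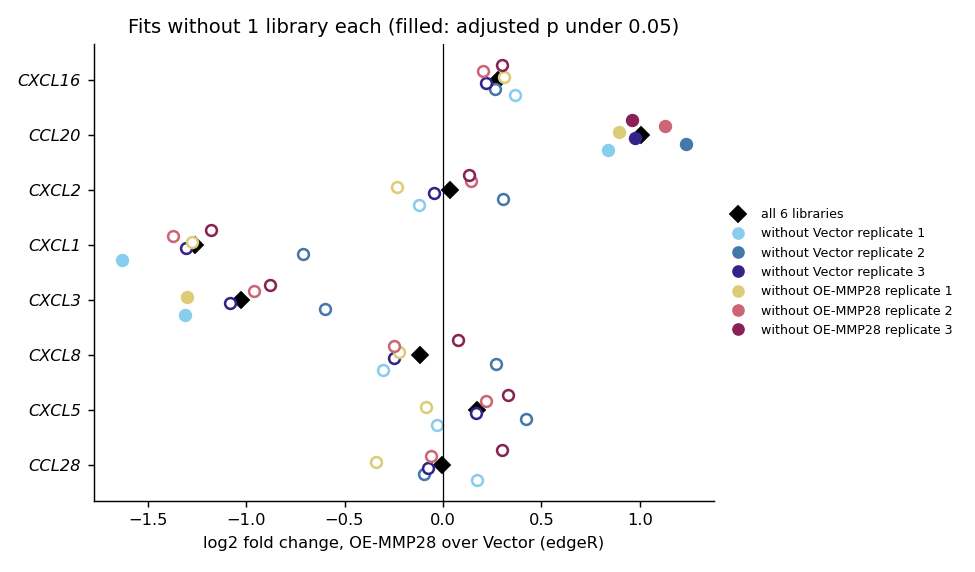
log2 fold change (horizontal axis, edgeR) of each tested chemokine with all 6 libraries (black diamond) and without each library in turn (circles, filled where the adjusted p was under 0.05). All 6 circles of CCL20 are filled, 1 of CXCL1 and 2 of CXCL3, and CXCL2, CXCL5, CXCL8 and CCL28 have circles on both sides of 0.

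CCL28 (ENSG00000151882, chr5:43376645-43412391, minus strand) had 0.882, 0.621 and 0.645 FPKM in Vector and 1.01, 0.753 and 0.381 FPKM in OE-MMP28. The OE-MMP28 range enclosed the Vector range, and the log2 fold change was -0.0044 (SE 0.33, 95% interval -0.69 to 0.68, edgeR adjusted p = 0.995). CX3CL1 (ENSG00000006210, chr16:57372458-57385048, plus strand), the ligand of CX3CR1, had 1 count in Vector replicate 2, 1 count in OE-MMP28 replicate 1 and 0 in the other 4 libraries. CX3CL1 was not detectable above the floor and was not tested.

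The receptors of these chemokines were at or near 0 in the same cells. CXCR2, CCR6 and CCR3 had no count in any library, CXCR1 had 1 count in all, and CX3CR1 had 2. CXCR6 had 10, 2 and 1 counts in Vector and 1, 2 and 3 in OE-MMP28, and CCR10 had 6, 2 and 3 counts in Vector and 7, 5 and 7 in OE-MMP28. None of these 7 receptors was tested. Of 22 chemokine receptors listed, 3 passed the filter. Among these, 2 were called higher and 1 lower, beside 23.4% of all tested genes called. The scavenging receptor ACKR3, which takes up CXCL11 and CXCL12, fell from 34, 84 and 47 counts in Vector to 2, 1 and 5 in OE-MMP28 (log2 fold change -4.47, SE 0.55, edgeR adjusted p = 8.88e-06), and it passed the filter on low counts through Vector alone. ACKR4, a scavenger of CC chemokines, rose from 18, 37 and 26 to 82, 54 and 84 counts (1.28, adjusted p = 0.00808). However, relative to the median of the other tested genes in a 10 Mb window centred on it, its change was 0.62 (edgeR adjusted p = 0.217). CCR9 was higher (1.22, adjusted p = 0.0439) with overlapping groups, and in 10 of 17 other fits it did not pass, among them those without Vector replicate 1 (0.128) or 3 (0.118) and without OE-MMP28 replicate 2 (0.210) or 3 (0.113).

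Other chemokines were mostly at 0. Of 34 further ligands, 22 had no count in any library, CCL2 (MCP-1) among them, and 3 were tested. Of these 3, 1 was higher, 1 was lower and 1 did not pass, beside 23.4% of all tested genes called. CXCL11, an interferon-induced ligand of CXCR3, fell from 16, 10 and 10 counts in Vector to 1, 0 and 5 in OE-MMP28 (log2 fold change -2.65, SE 0.71, edgeR adjusted p = 0.0105), and its adjusted p was 0.0532 without OE-MMP28 replicate 1 and 0.0623 without OE-MMP28 replicate 2. CCL24, an eosinophil chemoattractant, rose from 7, 1 and 4 to 12, 19 and 29 counts (2.15, SE 0.57, adjusted p = 0.00956), and without OE-MMP28 replicate 3 its adjusted p was 0.0724. Both rest on few reads, and each passed the filter on low counts only through the group in which it was high, Vector for CXCL11 and OE-MMP28 for CCL24.

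Proteases that release CXCL16 and CX3CL1 from the membrane did not pass the test. ADAM10 had 9.47 to 11.0 FPKM in Vector and 9.30 to 14.0 in OE-MMP28 (log2 fold change 0.20, edgeR adjusted p = 0.396), and ADAM17 had 2.65 to 3.75 and 2.18 to 2.66 FPKM (-0.39, adjusted p = 0.107). The iRhoms RHBDF1 (-0.54, adjusted p = 0.0667) and RHBDF2 (-0.39, adjusted p = 0.140), partners that ADAM17 needs for its maturation, likewise did not pass. RHBDF1 did pass in 6 of 18 other fits, and relative to the local median its change was -0.79 (edgeR adjusted p = 0.0142). ADAM17 passed in 1 of 18, without Vector replicate 2 (edgeR adjusted p = 0.0453), and ADAM10 and RHBDF2 in 0. TIMP3, an inhibitor of ADAM17, had at most 2 counts.

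Among the 14 tested NF-kappa-B factors and inhibitors, 1 was higher and 2 lower, a share near the 23.4% called among all tested genes, with a median log2 fold change of -0.14. NFKB2, the precursor of p52, fell from 12.3 ± 0.757 to 5.87 ± 0.937 FPKM (SD, n = 3; log2 fold change -1.05, SE 0.17, edgeR adjusted p = 1.69e-04) and passed in 18 of 18 other fits, although relative to the local median its log2 fold change was -0.58. REL was also lower (-1.06, adjusted p = 0.00534), though 43.3% of its exon length overlaps AC010733.2 on the same strand and relative to the local median its adjusted p was 0.112. NFKBIA, which encodes the inhibitor I-kappa-B-alpha, was higher (0.44, adjusted p = 0.0468). That call passed in only 3 of 18 other fits, it was lost without any 1 of the libraries except OE-MMP28 replicate 1 (adjusted p between 0.0545 and 0.186), and relative to the local median its change was -0.12 (adjusted p = 0.673). RELA, the main activating subunit, had 17.3 ± 2.70 FPKM in Vector and 15.8 ± 1.98 in OE-MMP28 (SD, n = 3) and did not pass (-0.12, adjusted p = 0.637).

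IL-1 and TNF, which induce these chemokines, had few reads. Of 14 tested genes among 17 cytokines, receptors and adaptors upstream of NF-kappa-B, 1 was higher and 2 lower, again near the 23.4% called among all tested genes. IL1B fell from 18, 55 and 22 counts in Vector to 5, 9 and 5 in OE-MMP28 (log2 fold change -2.47, SE 0.53, edgeR adjusted p = 0.00211), and IL1A from 23, 20 and 17 to 7, 4 and 5 counts (-2.03, SE 0.48, adjusted p = 0.00441). Both passed the filter on low counts through Vector alone, since all their OE-MMP28 counts were under 10, so the choice to test them favoured a difference. For both, the groups did not overlap, which held for 38.1% of all tested genes. TNF had at most 1 count. IL1RAP, the accessory chain of the IL-1 receptor, was higher (0.71, adjusted p = 0.0163), but its adjusted p was 0.0963 without Vector replicate 3, 0.0928 without OE-MMP28 replicate 1, 0.0603 without OE-MMP28 replicate 2 and 0.343 relative to the local median.

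The AP-1 and C/EBP transcription factors were changed in 4 of 11, beside 23.4% of all tested genes, with a median log2 fold change of 0.33. FOS rose from 110.0, 223 and 127 FPKM in Vector to 258, 258 and 302 in OE-MMP28 (log2 fold change 0.85, SE 0.20, edgeR adjusted p = 0.00450), FOSB rose by 0.90 (adjusted p = 0.00330) and FOSL1 by 0.98 (adjusted p = 0.00102). Relative to the local median, FOS changed by 0.22 with an adjusted p of 0.492. FOSL2 fell by 1.11 on the log2 scale (adjusted p = 1.84e-04), and relative to the local median its change was -0.57 (adjusted p = 0.0347). None of the 7 listed factors of mRNA decay and stability passed the test, and their median log2 fold change was 0.25.

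**Figure D5:**
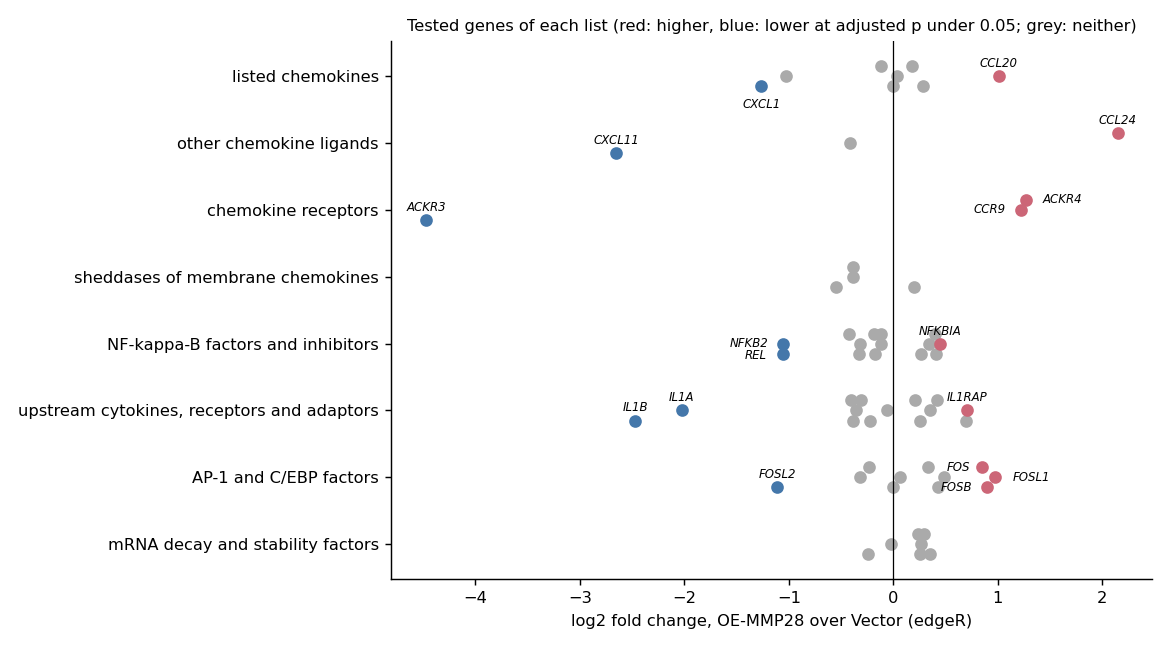
log2 fold change (horizontal axis, OE-MMP28 over Vector, edgeR) of each tested gene in the chemokine group and in 7 related lists, 1 point per gene with names for those past an adjusted p of 0.05. Of the named genes ACKR3 lies farthest to the left at -4.47 and CCL24 farthest to the right at 2.15, and points within a list are shifted vertically only to keep them apart.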

How the data were processed

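The authors deposited 1 table of read counts per gene (whole numbers, not normalized) and FPKM values for 6 libraries. Per the labels, libraries were made with a NEBNext Ultra RNA kit, and the submitters' processing notes name HISAT2 2.0.5 and featureCounts 1.5.0-p3. Strand setting and handling of reads that match several places are not given in the sources used here. All 58735 gene coordinates equalled those of GENCODE 29 on GRCh38. The deposited FPKM values implied library totals within -2.01% to 2.02% of the summed counts. Columns with the authors' own group means, fold changes and p-values were not used.

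Counts were tested with edgeR 4.0.16 (R 4.3.3): genes kept by filterByExpr (min.count 10, min.total.count 15; 15319 genes), TMM scaling, the quasi-likelihood test on group, and Benjamini-Hochberg adjustment over all genes tested, with a threshold of 0.05. The study's methods name limma, so limma 3.58.1 (voom, and on log2(FPKM + pseudocount)) was an alternative, with DESeq2 1.42.0. Other alternatives were other filters and scalings, each library left out, the replicate number as a block, and an offset for the local median. That is the median change of the other tested genes in a 10 Mb window centred on the gene. No 2 libraries agreed within sampling noise (chi-square per degree of freedom at least 15.1). The procedure was run on simulated data with 200 changed genes and the same spread parameter for every gene. That setting is simpler than these data, where 3579 genes were called, so it does not measure the error of the calls here. Levels were compared between genes by FPKM only. Named genes were the 10 chemokines, MMP28, genes of 7 related lists that passed the test or are receptors, sheddases or cluster neighbours of the 10, and the 3 genes most like CXCL16. RELA, TNF, CCL2, ATF3 and the markers are named beyond that rule, chosen after their values were seen. Members and lists were chosen with earlier results of these data known.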

Additional observations from a re-analysis of the deposited data

How the results depend on the processing

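CCL20 passed in 17 of 18 other fits, CXCL1 in 9 and CXCL3 in 6, and the other 5 tested chemokines passed in none. Against 1 chemokine called lower with all libraries, 2 were called lower without the filter on low counts, with RLE or upper-quartile scaling and without mitochondrial genes (CXCL3 in addition), and 0 with limma voom, with the 3 fits of limma on log2(FPKM + pseudocount) and at an adjusted p under 0.01. Without 1 library each, 0 to 2 were called lower, and the 1 without OE-MMP28 replicate 1 was CXCL3. The 1 chemokine called higher became 0 only when limma on log2(FPKM + 1) had no filter, where MMP28 (0.84) also failed the test with an adjusted p of 0.0903. Over all genes, 3579 were called, 1795 higher and 1784 lower. The counts were 1974 (1009 and 965) in limma on log2(FPKM + 1), 1970 (1000 and 970) with a pseudocount of 0.1, 670 (362 and 308) without a filter, 2368 with the local-median offset (1136 higher), and 1864 (939 and 925) at an adjusted p under 0.01. Without 1 library each they ranged from 2029 (without OE-MMP28 replicate 2) to 3865, with 985 to 1916 higher and 1044 to 1949 lower, and 2367 without Vector replicate 3. Signs of uncalled chemokines turned in some fits without 1 library, where log2 fold changes ran from -0.23 to 0.31 for CXCL2, -0.084 to 0.42 for CXCL5, -0.30 to 0.27 for CXCL8 and -0.34 to 0.30 for CCL28. They also turned for CXCL2 with upper-quartile scaling (-0.015) and, with the local-median offset, for CXCL2 (-0.00013), CCL28 (0.066) and NFKBIA (-0.12). Samples with the same replicate number did not deviate together (correlations of 0.017, 0.0080 and -0.088), and no sample correlated best with its own number. With the replicate block 3685 genes were called, CCL20 had an adjusted p of 0.00164, CXCL1 of 0.0387 and CXCL3 of 0.0520, and of the genes named here only NFKBIA lost its call (0.0600). The cause of these shifts was not tested. Counts of 15 to 172 per library limit what could be seen for CXCL1, CXCL3, CXCL5, CXCL8, CCL20 and CCL28.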
